A study of Mus musculus with 6 samples.

Results

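Lipid-associated macrophages are macrophages found in fat, plaques and injured tissue that express the surface receptor Trem2 together with genes for taking up, binding and storing lipid. In the RPE-choroid, the retinal pigment epithelium (RPE) with the vascular choroid beneath it, the expression of 10 genes of this kind was compared between control and subretinal fibrosis (SRF) mice. The genes were Trem2, Tyrobp, Apoe, Lpl, Gpnmb, Spp1, Cd9, Fabp5, Lgals3 and Cd36, chosen by symbol and matched to their Ensembl identifiers. All 10 were found among the 15663 genes listed in each library.

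RNA-seq was performed on 6 libraries, from 3 control and 3 SRF mice. All were male C57BL/6J mice, aged 8 to 10 weeks in the study's methods, with no transgene. Control mice were untreated. SRF mice received 4 laser burns per eye and a further burn of each lesion 10 days later, and the RPE-choroid was taken 20 days after that second laser. The lesions occupy only part of the tissue that was sequenced, and all cells of the RPE-choroid contributed RNA. Laser treatment and fibrosis cannot be told apart, since no lasered eyes without fibrosis were included in this comparison. Total counts lay between 13667310 and 24356023 per library.

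TREM2 binds lipids, lipoproteins and cell debris at the surface of macrophages and microglia, and signals through TYROBP (DAP12), an adaptor whose ITAM motif recruits the kinase SYK. APOE is a lipoprotein component and a ligand of TREM2, LPL releases fatty acids from lipoproteins, CD36 takes up fatty acids and oxidised lipoproteins, and FABP5 carries fatty acids inside the cell. Spp1 (osteopontin), Gpnmb and Lgals3 (galectin-3) encode glycoproteins and a lectin of activated phagocytes, and Cd9 encodes a tetraspanin. Several of these genes are not particular to macrophages. APOE and GPNMB are known products of RPE and pigment cells, LPL and CD36 of adipocytes and muscle, and CD36 also of endothelium.

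All 10 genes had a positive log2 fold change (SRF minus control), and none passed the quasi-likelihood test of edgeR after Benjamini-Hochberg adjustment. The median log2 fold change of the 10 was 0.52, beside 0.0012 over all 13454 tested genes. The 3 SRF libraries all lay above the 3 control libraries for 8 genes (Trem2, Tyrobp, Gpnmb, Spp1, Cd9, Fabp5, Lgals3 and Cd36), and this was so for 6.71% of all tested genes. The unadjusted edgeR p-value was under 0.05 for 7 genes, beside 4.16% of the tested genes that were higher in SRF at that level. edgeR called 0 of the 10, and 0% of the tested genes as higher in SRF. To be called, a gene had to reach both an adjusted p-value below 0.05 and a fold change of 0.5 or more on the log2 scale. DESeq2 on the same counts called 4 of the 10 (Trem2, Tyrobp, Spp1 and Fabp5), beside 0.803% of the tested genes called higher. These 4 genes also belong to the list of changed genes that the study drew from the same counts, so the DESeq2 calls are not independent evidence of their direction.

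**Figure D1:**
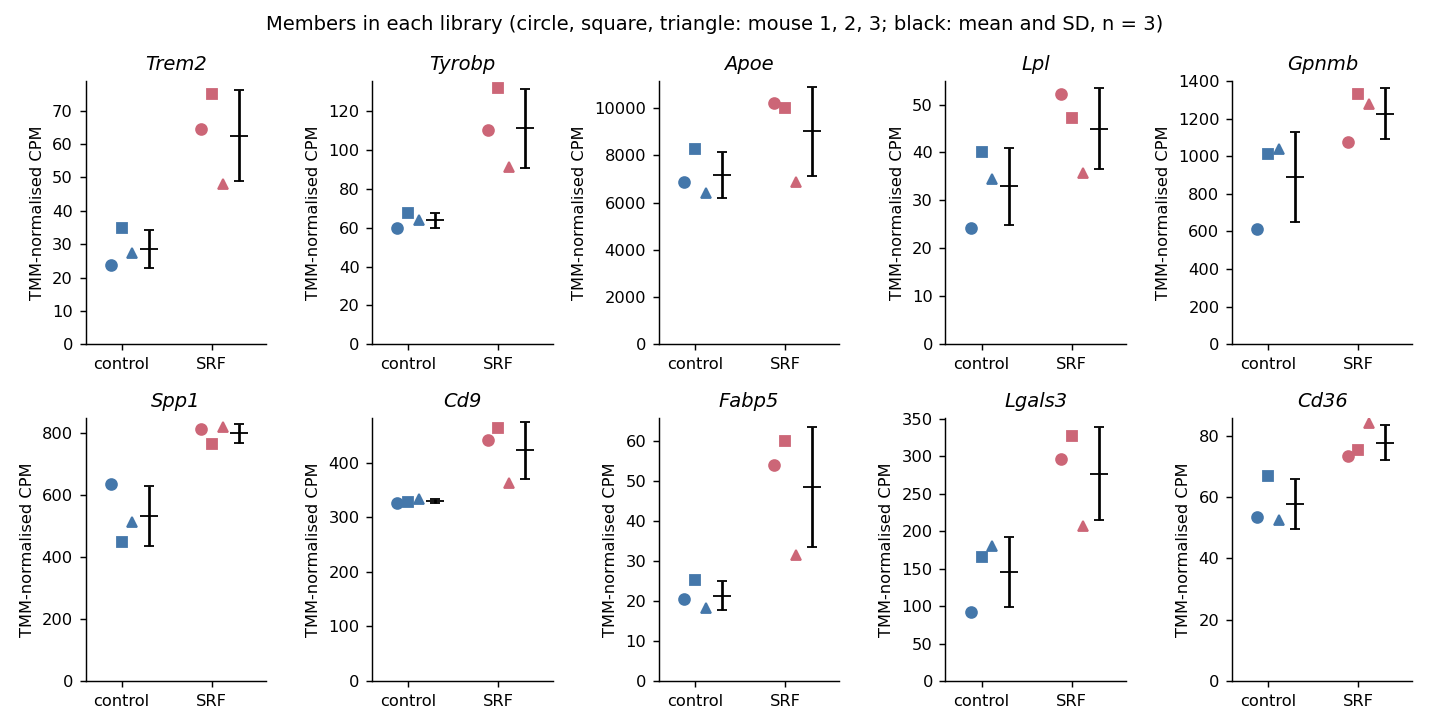
Expression of the 10 genes in each library, in TMM-normalised CPM (counts scaled to a common library size) on linear axes from 0. Circles, squares and triangles are mice 1, 2 and 3 of each group, and the black bars give the mean and SD (n = 3). The SRF points lie above all control points in 8 of the 10 panels, and SRF mouse 3 lies within the control range for Apoe and Lpl.

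Trem2 (ENSMUSG00000023992, GRCm38 chr17:48346401-48354147, plus strand) was measured at 23.8, 34.7 and 27.2 CPM in control mice 1, 2 and 3. In SRF mice 1, 2 and 3 it was measured at 64.6, 75.1 and 47.9 CPM. All 3 SRF mice lay above all 3 control mice, with the lowest SRF value 1.38 times the highest control value. The mean was 28.5 ± 5.55 CPM in control and 62.5 ± 13.7 CPM in SRF (SD, n = 3 each), a ratio of 2.19. The log2 fold change was 1.13 with a standard error of 0.21, and the adjusted p-value was 0.247 in edgeR and 0.000696 in DESeq2, both with Benjamini-Hochberg adjustment. The exact permutation test (two-sided) of the 3 against 3 values gave p = 0.10, the smallest this design allows.

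Tyrobp (ENSMUSG00000030579, chr7:30413760-30417585, plus strand), the signalling adaptor of TREM2, followed the same order of mice. Its values were 60.0, 67.6 and 64.2 CPM in control and 110.3, 132 and 91.4 CPM in SRF. The control values differed by no more than 1.13 times, and the lowest SRF value was 1.35 times the highest of them. A log2 fold change of 0.80 (standard error 0.15) was estimated, with an adjusted p-value of 0.257 in edgeR and 0.00176 in DESeq2 (Benjamini-Hochberg). Trem2 and Tyrobp were both highest in SRF mouse 2 and lowest in control mouse 1, as were Gpnmb, Cd9 and Lgals3.

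RefSeq promoter windows on GRCm38.p6 were given for 7 of the 10 genes and not for Tyrobp, Lpl and Fabp5. The 250 bases before the start were searched on both strands for a PU.1 core (GAGGAAG), an AP-1 site (TGANTCA) and an E-box (CACGTG). The Trem2 and Spp1 windows are shown because they were the only ones of these 7 genes with a match, which is marked in capitals. The windows read 5′ to 3′ on the plus strand and lie at chr17:48346151-48346400 for Trem2 and chr5:104434861-104435110 for Spp1.
Trem2: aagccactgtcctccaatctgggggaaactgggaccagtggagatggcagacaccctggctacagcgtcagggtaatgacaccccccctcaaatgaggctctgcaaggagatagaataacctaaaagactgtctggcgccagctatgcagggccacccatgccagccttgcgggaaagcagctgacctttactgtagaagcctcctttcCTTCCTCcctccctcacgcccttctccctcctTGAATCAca
Spp1: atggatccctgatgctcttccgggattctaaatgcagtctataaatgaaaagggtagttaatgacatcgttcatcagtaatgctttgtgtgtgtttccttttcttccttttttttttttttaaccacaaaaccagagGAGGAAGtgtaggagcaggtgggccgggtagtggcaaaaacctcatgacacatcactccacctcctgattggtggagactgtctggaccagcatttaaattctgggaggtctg
In Trem2 the reverse complement of the PU.1 core began 41 bases and the AP-1 match 9 bases before the start, without overlap. In Spp1 the PU.1 core began 113 bases before the start, and a second RefSeq start of Spp1 had no match. Over 32851 mouse promoter windows of this length, 10.6% held the PU.1 core, 6.75% the AP-1 letters and 6.02% the E-box. Spi1, which encodes PU.1, was at 14.1, 14.4 and 14.2 CPM in control and at 27.7, 27.8 and 23.3 CPM in SRF. DESeq2 called it as higher (log2 fold change 0.88, adjusted p = 0.000352 with Benjamini-Hochberg adjustment), while edgeR gave an adjusted p of 0.198. The matches are letters in a window, and binding was not measured.

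Among the genes for lipid ligands and lipid handling, Fabp5 showed the largest fold change. Fabp5 (ENSMUSG00000027533, chr3:10012548-10016607, plus strand) was at 20.6, 25.4 and 18.2 CPM in control and at 54.0, 60.2 and 31.6 CPM in SRF. The groups did not overlap, but SRF mouse 3 lay nearer to the highest control mouse than to the other SRF mice. Fabp5 had a log2 fold change of 1.18 (standard error 0.26) and an adjusted p-value of 0.311 in edgeR and 0.00416 in DESeq2 (Benjamini-Hochberg). Reads shared with the processed pseudogene Fabp5l2 could not be assessed.

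Apoe (ENSMUSG00000002985, chr7:19696109-19699188, minus strand) was by far the most abundant of the 10. It was at 6856, 8279 and 6389.7 CPM in control and at 10208, 10019 and 6853 CPM in SRF. SRF mice 1 and 2 lay above all control mice, and SRF mouse 3 lay within the control range. The log2 fold change was 0.33 (standard error 0.18), with an edgeR adjusted p of 0.838 and a DESeq2 adjusted p of 0.865 (Benjamini-Hochberg), and the exact permutation test gave p = 0.30. The log2 fold change of Apoe was 0.19 with a correction for GC content and 0.50 without SRF mouse 3. Apoe took between 0.629% and 0.808% of all counts in control libraries and between 0.691% and 1.03% in SRF libraries.

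Lpl (ENSMUSG00000015568, chr8:68880491-68907448, plus strand) also overlapped between groups in CPM. It was at 24.2, 40.1 and 34.5 CPM in control and at 52.2, 47.1 and 35.7 CPM in SRF. Its log2 fold change was 0.45 (standard error 0.22), with an adjusted p-value of 0.785 in edgeR and 0.842 in DESeq2 (Benjamini-Hochberg). Without control mouse 1, the lowest for Lpl, the log2 fold change was 0.27. In the deposited FPKM values the groups did not overlap for Lpl, at 7.73, 12.08 and 11.59 in control and 18.08, 17.49 and 12.53 in SRF. Cd36 (ENSMUSG00000002944, chr5:17781690-17888801, minus strand), the fatty acid and scavenger receptor, was at 53.6, 67.0 and 52.4 CPM in control and at 73.5, 75.4 and 84.2 CPM in SRF. Its groups did not overlap, and SRF mouse 3, lowest of the SRF mice for 7 of the 10 genes, was highest for Cd36. The log2 fold change of Cd36 was 0.43 (standard error 0.14), with an adjusted p-value of 0.516 in edgeR and 0.271 in DESeq2 (Benjamini-Hochberg).

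Spp1, Lgals3, Gpnmb and Cd9 encode secreted or surface proteins. Spp1 (ENSMUSG00000029304, chr5:104435118-104441050, plus strand) was at 636, 447 and 513 CPM in control and at 812, 763 and 819 CPM in SRF. The SRF mice lay close together, within 1.07 times of each other, and all above the control mice. SRF minus control came to 0.59 on the log2 scale (standard error 0.15), with an adjusted p-value of 0.410 in edgeR and 0.0161 in DESeq2 (Benjamini-Hochberg). An unlisted gene model on the same strand, Gm42793, overlaps Spp1, so its reads could be counted with those of Spp1.

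Lgals3 (ENSMUSG00000050335, chr14:47367751-47386160, plus strand) was at 92.2, 165 and 179.7 CPM in control and at 297, 327 and 207 CPM in SRF. Control mouse 1 was low and SRF mouse 3 was the lowest of the SRF mice, and the groups did not overlap. The log2 fold change of 0.93 had a standard error of 0.28, and the adjusted p-value was 0.496 in edgeR and 0.0702 in DESeq2 (Benjamini-Hochberg). Lgals3 had a larger fold change than Tyrobp and Spp1, with a wider spread in control.

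Gpnmb (ENSMUSG00000029816, chr6:49036546-49070929, plus strand) was at 615, 1013 and 1041 CPM in control and at 1074, 1329.9 and 1279.6 CPM in SRF. The lowest SRF mouse exceeded the highest control mouse by a ratio of only 1.03, and control mouse 1 stood below the rest. Without control mouse 1 the log2 fold change of Gpnmb was 0.26 in place of 0.46, and without SRF mouse 3 as well it was 0.22. The adjusted p-value was 0.763 in edgeR and 0.637 in DESeq2 (Benjamini-Hochberg). Cd9 (ENSMUSG00000030342, chr6:125460266-125494791, minus strand) was the steadiest gene in control, at 326, 328 and 333 CPM, and was at 441, 463 and 363 CPM in SRF. Its log2 fold change was 0.36 (standard error 0.12), with an adjusted p-value of 0.578 in edgeR and 0.247 in DESeq2 (Benjamini-Hochberg). Reads of Cd9 could not be told apart from those of 2 unlisted overlapping genes on the opposite strand, Gm28809 and Gm26728, or of the pseudogene Cd9-ps.

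**Figure D2:**
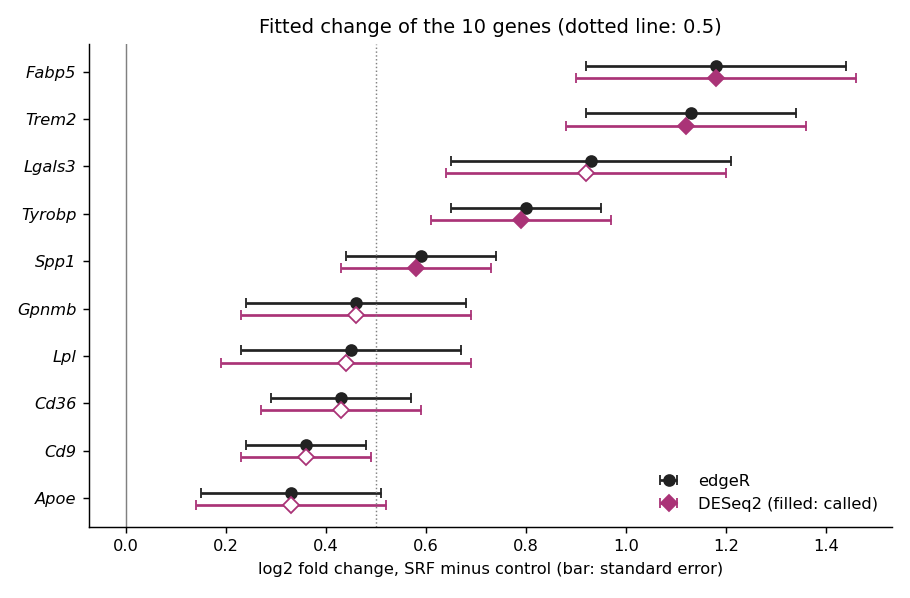
Log2 fold change of the 10 genes, SRF minus control, with its standard error, from edgeR (circles) and DESeq2 (diamonds, filled where called), ordered by the edgeR value. The estimates run from 0.33 for Apoe to 1.18 for Fabp5, all are positive, and DESeq2 called Fabp5, Trem2, Tyrobp and Spp1 but not Lgals3.

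The 4 DESeq2 calls depended on the mice to different degrees. With each mouse left out in turn, DESeq2 called Tyrobp in 6 of 6 fits, Trem2 in 5, Fabp5 in 3 and Spp1 in 2. Trem2 was not called without SRF mouse 2. Fabp5 was not called without control mouse 3, SRF mouse 1 or SRF mouse 2, and Spp1 was not called without control mouse 2, control mouse 3, SRF mouse 1 or SRF mouse 2. Lgals3 was called in 2 of the 6 fits, without control mouse 3 and without SRF mouse 3. Control mouse 1 and SRF mouse 3 carried far more photoreceptor RNA than the other mice, with summed photoreceptor markers of 15284 and 14762 CPM beside 1026 to 2258 CPM. Without both libraries, with 2 mice in each group, edgeR called 5 of the 10 as higher (Trem2, Tyrobp, Spp1, Fabp5 and Lgals3). In that fit it called 153 of all genes, counting both directions. The 10 genes then all lay higher in both SRF mice than in both control mice. Groups of 2 separate more readily than groups of 3, and SRF mouse 3 was the lowest SRF mouse for 7 of the 10. The share of all tested genes that lay higher without overlap, or were called higher, was not computed for this fit. Trem2 had an adjusted p of 0.0188, Tyrobp of 0.0276 and Lgals3 of 0.0253 (edgeR, Benjamini-Hochberg). With the photoreceptor level as a covariate in all 6 libraries, edgeR called 0 of the 10, and 9 had an unadjusted p under 0.05.

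The level of each gene in control tissue was compared in FPKM, which scales counts by transcript length. Apoe stood at 6082 ± 802 FPKM (SD, n = 3), rank 9 of 15663 genes, and gave between 81.4% and 85.5% of the summed FPKM of the 10 genes in control. Spp1 followed at 369.9 ± 67.4, Cd9 at 263 ± 3.49, Gpnmb at 237 ± 63.3, Lgals3 at 126 ± 39.2 and Tyrobp at 108 ± 5.43 FPKM. These 6 genes were within the highest 10% of listed genes in control RPE-choroid. The other 4 were lower, with Trem2 at 25.8 ± 4.91, Fabp5 at 21.2 ± 3.54, Cd36 at 20.6 ± 2.89 and Lpl at 10.5 ± 2.38 FPKM, still above the median of 6.96 over all genes. Neighbours in this order whose control values overlapped were Cd9 and Gpnmb, Lgals3 and Tyrobp, Trem2 and Fabp5, and Fabp5 and Cd36. The order of the 10 was the same in SRF, where Trem2 stood at 58.6 ± 13.3 FPKM, and where Fabp5, at 32.25 to 62.44, no longer overlapped with Cd36 at 29.3 ± 2.11 FPKM.

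Apoe, Spp1, Cd9 and Gpnmb exceeded in control the most abundant of 18 macrophage and microglia markers, C1qb, at 126 FPKM. The median of these markers was 6.60 FPKM, while the median of 15 RPE markers was 422 FPKM. Only Apoe exceeded the RPE median. The 4 abundant genes had log2 fold changes of 0.33 to 0.59, and Trem2 and Fabp5, which were less abundant in control, had the largest fold changes of the 10. Lpl and Cd36 were lower still in control and had log2 fold changes of 0.45 and 0.43. Lgals3 and Tyrobp, at 126 and 108 FPKM in control, had log2 fold changes of 0.93 and 0.80, so control level and change did not run in 1 order. The cells that made each transcript were not identified in these bulk libraries.

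**Figure D3:**
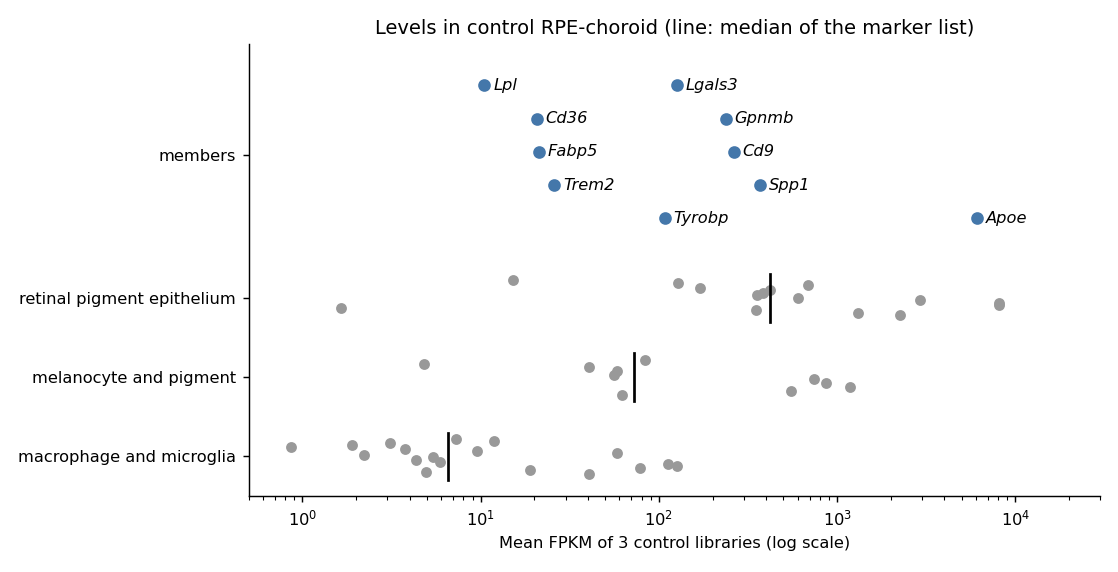
Mean FPKM of the 3 control libraries on a log axis, for the 10 genes (blue) and for markers of macrophages and microglia, melanocytes and RPE (grey, 1 point per gene, with the list median as a line). Apoe, Spp1, Cd9 and Gpnmb lie to the right of all macrophage and microglia markers, and Lpl lies nearest to the median of these markers.

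As with the 10 genes, the macrophage and microglia markers were mostly higher in SRF. Their summed level was between 714 and 876 CPM in control and between 1127 and 1374 CPM in SRF, with no overlap. The median log2 fold change of the 18 markers was 0.46, with 15 positive, 3 negative and a lowest value of -0.34. Without overlap, 9 lay higher in SRF, beside 6.71% of all tested genes. DESeq2 called 3 (C1qb, C1qc and Spi1), beside 0.803% of all tested genes called higher. Csf1r, the receptor on which macrophages depend for survival, had a log2 fold change of -0.03. In bulk tissue, fewer cells of a type and less RNA per cell cannot be told apart, and the same holds for more. The RPE markers moved the other way. Their sum lay between 48902 and 57198 CPM in control and between 32829 and 43041 CPM in SRF, 7 of 15 lay lower in SRF without overlap (6.43% of all tested genes did so) and DESeq2 called 3 of them lower (Rgr, Rrh and Lrat, of the visual cycle), beside 0.334% of all tested genes. The part of either change in the values of the 10 genes was not tested.

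Each gene was also described relative to the mean log2 CPM of the 18 macrophage and microglia markers in the same library. For Trem2 this log2 ratio was 0.11, 0.41 and 0.07 in control and 1.08, 0.95 and 0.53 in SRF, a difference of the means of 0.66. For Tyrobp it was 1.42, 1.37 and 1.29 in control and 1.85, 1.76 and 1.46 in SRF, a difference of 0.33. Trem2 and Tyrobp were the only genes of the 10 whose ratios did not overlap between groups. For Tyrobp the gap was narrow, with SRF mouse 3 at 1.46 and control mouse 1 at 1.42. The share of all tested genes without overlap on this scale was not computed. The ratio of Fabp5 differed by 0.67 and that of Lgals3 by 0.51, both with SRF mouse 3 inside the control range. For Spp1 the difference was 0.15, and for Gpnmb, Lpl, Cd36, Cd9 and Apoe it was 0.05, 0.01, -0.02, -0.10 and -0.13. The ratio depends on which markers are averaged and was given no test.

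**Figure D4:**
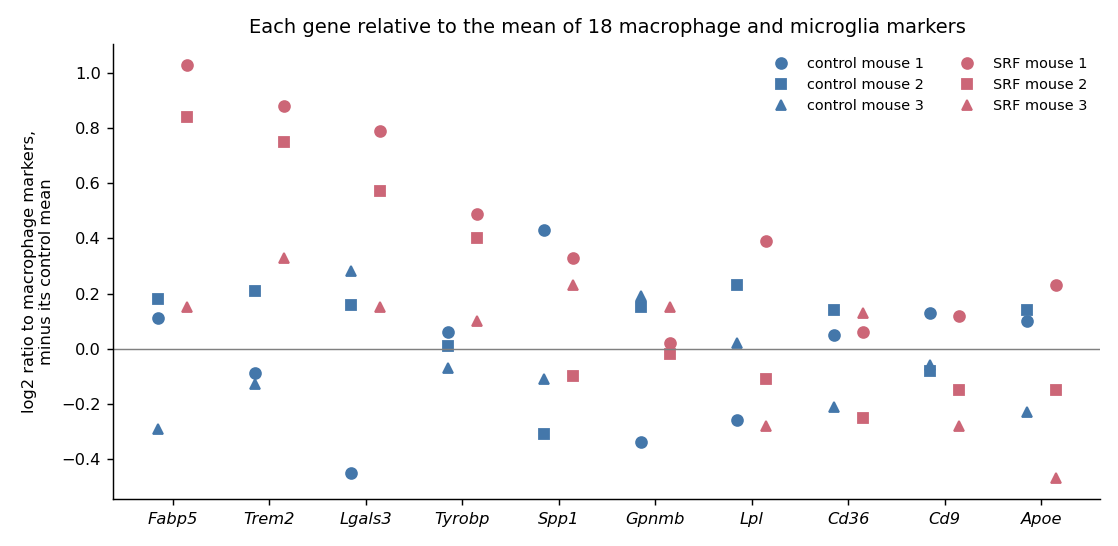
Log2 ratio of each gene to the mean of 18 macrophage and microglia markers in the same library, minus the control mean of that ratio. Points are single mice, with control in blue and SRF in red, and genes are ordered by the difference of the group means. The SRF points of Trem2 and, by a narrow gap, of Tyrobp lie above all control points, and those of the other 8 genes overlap with control.

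Adipocyte and muscle markers were examined because these cells also express Lpl and Cd36. The 7 listed of 8 adipocyte markers summed to between 29.1 and 37.0 CPM in control and to 62.5, 60.5 and 36.4 CPM in SRF mice 1, 2 and 3, and Lep was not listed. Skeletal muscle markers summed to 2055, 3294 and 2053 CPM in control and to 4586, 3778 and 1269 CPM in SRF. Both sums were highest in SRF mice 1 and 2, as was Lpl, whereas Cd36 was highest in SRF mouse 3, and their part in the values of Lpl and Cd36 was not tested. The 4 adipocyte markers tested had a median log2 fold change of 0.57 and the 10 muscle markers of 0.44, all positive. The muscle median was 0.07 without SRF mouse 1 and 0.83 without SRF mouse 3. Endothelial markers had a median log2 fold change of 0.03, melanocyte markers of 0.09, Müller glia markers of 0.03, Schwann cell markers of 0.26, and fibroblast and mural cell markers of 0.27. Over the alternatives the Schwann cell median ran from 0.04 (without SRF mouse 1) to 0.45 (without SRF mouse 3), and that of fibroblast and mural cells from 0.15 (without control mouse 1 and SRF mouse 3 together) to 0.39 (without control mouse 3). Of bone markers, which were examined because Spp1 and Gpnmb are also made in bone, Bglap, Ibsp, Calcr and Ocstamp were not listed. Of the 4 bone markers tested, 3 had a positive log2 fold change and 1 a negative one, with a median of 0.30. The values ran from -0.20 to 0.87, the highest being that of Acp5. Acp5, the tartrate-resistant acid phosphatase of osteoclasts and some macrophages, was at 12.9, 12.1 and 12.9 CPM in control and at 25.2, 23.3 and 20.8 CPM in SRF. DESeq2 called Acp5 (log2 fold change 0.87, adjusted p = 0.000918 with Benjamini-Hochberg adjustment), and edgeR did not, with an adjusted p of 0.198.

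The 8 tested genes with profiles most like Trem2 over the 6 libraries were Cd68, C1qb, Clec4d, Slc36a2, Fabp5, Ms4a7, Cebpb and Bcl2a1b. Likeness was the Euclidean distance between log2(CPM + 0.5) values, centred on the mean of each gene, which was 0.245 for Cd68 and 0.415 for Bcl2a1b. Cd68, a lysosomal glycoprotein of phagocytes, was at 68.5, 88.9 and 76.3 CPM in control and at 155, 189 and 138 CPM in SRF. Fabp5 ranked 5 of 13453 genes, Tyrobp 14 and Lgals3 37. Lpl ranked 255, Gpnmb 509, Apoe 534, Cd9 571, Cd36 605 and Spp1 861, at a distance of 1.10. The distance weighs differences between mice as well as between groups, and all these genes come from the same 6 libraries.

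**Figure D5:**
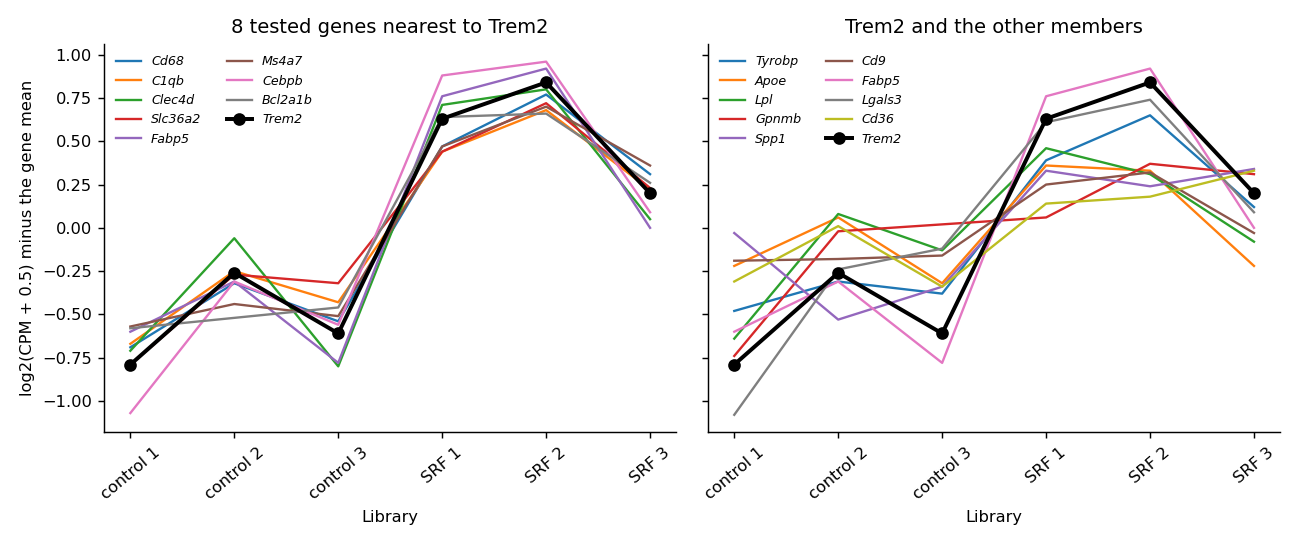
Centred log2(CPM + 0.5) in the 6 libraries for Trem2 (black) with the 8 nearest tested genes (left) and with the other 9 genes of the set (right). The 8 nearest genes are highest in SRF mice 1 and 2 and lower in SRF mouse 3, while Gpnmb, Spp1 and Cd36 in the right panel stay high in SRF mouse 3.

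Further genes of TREM2 signalling were mostly of low abundance. Of 12 listed, 11 were tested, 2 lay higher in SRF without overlap and none lower, and the median log2 fold change was 0.31, or 0.17 without SRF mouse 2. Over all tested genes, 6.71% lay higher and 6.43% lower without overlap. DESeq2 called Vav1, a guanine nucleotide exchange factor downstream of SYK, which was at 3.05, 3.58 and 4.21 CPM in control and at 6.65, 9.47 and 8.74 CPM in SRF (log2 fold change 1.19, adjusted p = 0.0302, Benjamini-Hochberg). Inpp5d, which encodes the phosphatase SHIP1 that restrains this pathway, had a log2 fold change of 0.48 with a standard error of 0.18 and did not pass, with an adjusted p of 0.619 in edgeR and 0.572 in DESeq2 (Benjamini-Hochberg). Syk itself had a log2 fold change of 0.32 (standard error 0.23), and the TREM2 sheddases Adam10 and Adam17 of -0.12 and 0.21. Of 14 other receptors and adaptors examined beside these, Trem1, Trem3 and Treml2 were not listed and 6 were tested. DESeq2 called Clec7a (dectin-1, log2 fold change 1.45) and Fcer1g (the Fc receptor gamma chain, 0.76), beside 0.803% of all tested genes called higher.

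Other genes described in lipid-associated macrophages and disease-associated microglia included more calls. Of 32 such genes 31 were tested, 30 had a positive log2 fold change, 11 lay higher in SRF without overlap, and the median log2 fold change was 0.31. DESeq2 called 8 of them, with Mmp12 (macrophage elastase, log2 fold change 2.39), Atp6v0d2 (a proton pump subunit, 1.90), Ctss (cathepsin S, 1.61) and Lyz2 (lysozyme, 1.49) ahead of Clec7a, Itgax, Cd68 and Cd84. The lists share genes, and Clec7a was already counted among the receptors and adaptors above. Over all tested genes, 6.71% lay higher in SRF without overlap and DESeq2 called 0.803% higher. edgeR called none of the 31, and several of these 8 are also on the list that the study drew from these counts. Homeostatic microglia genes, which brain microglia are known to lose in the disease-associated state, had positive values. Of 11, 9 were tested, all 9 had a positive log2 fold change, with a median of 0.59 (0.34 without control mouse 1 and SRF mouse 3 together), and DESeq2 called Fcrls (0.78). P2ry12 and Tmem119, the defining microglial genes, had log2 fold changes of 0.43 and 0.45 with groups that overlapped.

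Genes of lipid handling had both positive and negative log2 fold changes, as did all tested genes (6773 positive and 6681 negative). Over all tested genes, 6.71% lay higher and 6.43% lower in SRF without overlap. Of 24 genes of fatty acid uptake, binding and storage, 22 were tested, 14 were positive and 8 negative, 3 lay lower in SRF without overlap (Vldlr, Dgat2 and Acsl4) and 0 higher, the median log2 fold change was 0.04, and DESeq2 called 0 in either direction. Fabp4, the fatty acid binding protein of adipocytes and macrophages, was at 9.23, 11.4 and 8.97 CPM in control and at 21.6, 19.5 and 10.5 CPM in SRF, so that SRF mice 1 and 2 were high, as for Fabp5, and SRF mouse 3 overlapped with control. Its log2 fold change was 0.80 (standard error 0.29), with an adjusted p of 0.604 in edgeR and 0.362 in DESeq2 (Benjamini-Hochberg). Vldlr, a lipoprotein receptor, had a log2 fold change of -0.48, with all SRF mice below all control mice, and an edgeR adjusted p of 0.604 (Benjamini-Hochberg). Of 29 genes of lipoprotein and cholesterol handling and their nuclear receptors, 26 were tested, with 4 higher and 1 lower in SRF without overlap, a median log2 fold change of 0.08 and 0 DESeq2 calls. Mitf, a pigment cell transcription factor known to regulate Gpnmb, had a log2 fold change of -0.55, and its relatives Tfe3 and Tfeb had values of 0.30 and 0.53. None of these 3 passed in edgeR, where the adjusted p-values were 0.448, 0.601 and 0.665 (Benjamini-Hochberg).

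Relatives and receptors of the surface and secreted proteins differed in direction. Of 10 osteopontin receptor subunits, DESeq2 called integrin Itgb5 higher and its partner Itgav lower. Over all tested genes, DESeq2 called 0.803% higher and 0.334% lower. Itgb5 was at 97.0, 94.6 and 92.0 CPM in control and at 179.6, 215 and 203 CPM in SRF, with a log2 fold change of 1.07 and an edgeR adjusted p of 0.106 (Benjamini-Hochberg). Itgav, the alpha subunit that pairs with it, was at 289, 294 and 289 CPM in control and at 214, 196 and 179 CPM in SRF, with a log2 fold change of -0.57 and an edgeR adjusted p of 0.264 (Benjamini-Hochberg). Cd44, the non-integrin osteopontin receptor, had a log2 fold change of 0.21 (standard error 0.11). Among galectins other than Lgals3, the 5 tested had a median log2 fold change of 0.08 and DESeq2 called 0. Among 12 tetraspanins other than Cd9, DESeq2 called the leukocyte gene Cd53 higher (0.82) and Tspan3 lower (-0.51), and the median was -0.06. Among the scavenger receptors other than Cd36, 7 were tested, and DESeq2 called Cd68 (1.05), which was already counted among the lipid-associated macrophage genes. Msr1 had a log2 fold change of 0.91 without passing, and Scarb1 had one of -0.03.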

How the data were processed

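RNA-seq of RPE-choroid was analysed in 3 control and 3 SRF mice, grouped by their sample titles. The authors filtered the reads with FASTP, counted them on genes with StringTie and deposited whole-number counts without normalization, with FPKM values beside them that scale by transcript length and library. The aligner, genome build and strandedness are not given in the sources used here. The counts were read as deposited, and positions and symbols were taken from GENCODE M21 on GRCm38, where 15659 of 15663 identifiers were found. No listed gene has a count under 1 in any library, so the tables appear to hold only genes detected in all 6, and a gene that is not listed has no value here.

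The 13454 genes that exceeded 50 counts in 2 or more libraries were tested with edgeR 4.0.16 in R 4.3.3, using TMM normalization, glmQLFit and glmQLFTest with no term but the group and with Benjamini-Hochberg adjustment over all tested genes. The count criterion and the call thresholds, adjusted p below 0.05 and 0.5 or more on the log2 scale in either direction, were those of the study, which used DESeq2. The test was repeated with DESeq2 1.42.0 and with limma 3.58.1, on counts or on the deposited FPKM after adding 0.1 or 1 and taking log2. Further alternatives were other scalings and filters, a GC correction, a photoreceptor covariate, a replicate block and left-out libraries. Left-out libraries and the GC correction within DESeq2 were added after seeing the data. The standard error of the log2 fold change, with a median of 0.19, limits what can be detected. For single values the exact permutation test was used. The fits were first tested on simulated data. CPM values are TMM-normalized.

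The genes named were the 10 genes, members of the accompanying lists called by DESeq2 or edgeR or with the smallest p-values, up to 4 a list, genes with a role needed to describe them, and the 8 genes nearest to Trem2. In the list with 8 DESeq2 calls all 8 were named, which goes beyond this rule and was decided after their values were seen. These genes, lists and tests were chosen with earlier results of these data known. Mice are separate animals, and same-numbered control and SRF mice were not paired by the labels.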

Additional observations from a re-analysis of the deposited data

How the results depend on the processing

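The log2 fold changes of the 10 genes kept their positive sign under all 21 alternatives run. Where overlap was recomputed, 8 to 10 of the 10 lay higher in SRF without it, and all 10 only where SRF 3 was left out. Smaller groups separate more readily, and the share over all tested genes was not computed for the alternatives. The number of the 10 genes called was 0 in edgeR, 4 in DESeq2 and 5 in edgeR without control 1 and SRF 3 together. The number of all tested genes called was 0 in edgeR, 1 with the newer form of the edgeR fit, with limma-voom, with upper-quartile factors, with library totals only, without a filter, with more than 10 counts in at least 3 libraries and with the photoreceptor covariate, 2 with limma on log2(FPKM + 0.1) and log2(FPKM + 1), 153 in DESeq2 and 153 in edgeR without control 1 and SRF 3 together, and 0 to 5 with each library left out. The cause of these differences was not tested. The median log2 fold change of the 10 genes was 0.52, and 0.63 and 0.61 on FPKM with pseudocounts of 0.1 and 1, 0.60 with the GC correction, 0.61 with the replicate block and GC correction, 0.58 without control 1 and SRF 3 together and 0.53 to 0.59 with each library left out. In DESeq2 the genes called went from 153 to 514 without control 1 and SRF 3 together and to between 67 and 343 with each library left out, and the number of the 10 genes called was between 1 and 5. With the replicate block alone edgeR called 0 genes and 0 of the 10. How control and SRF libraries of the same number departed from the mean of their group correlated at -0.47, 0.50 and -0.28 for numbers 1, 2 and 3. These 3 values cannot decide whether mice of the same number shared a batch, which the labels do not state. The median log2 fold changes of the fatty acid, lipoprotein, galectin and tetraspanin lists lay between -0.10 and 0.19 under the alternatives. Precision was limited to a median standard error of 0.19, and Trem2 and Fabp5, with values above 1, did not pass in edgeR on all 6 libraries.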
